A study of Neurospora crassa with 2 samples.

Results

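The genes described are cdt-1 (NCU00801) and cdt-2 (NCU08114), which encode the cellodextrin transporters CDT-1 and CDT-2 of the filamentous fungus Neurospora crassa. They were taken by locus tag, 2 of the 9730 genes in the RPKM table. RPKM is the read count of a gene divided by the length of its model and by the size of the library. RNA came from mycelia of 2 strains, whose genotype labels both end in the letter a. The letter reads as mating type a, but the mating type transcripts given below differed between the strains. The Δ3βGΔncw-1 strain lacks ncw-1, the gene of a non-anchored cell wall protein, and also gh1-1, gh3-3 and gh3-4, which encode β-glucosidases. The Δ3βG strain lacks the same β-glucosidase genes and keeps ncw-1. Both were grown for 20 h in the preculture medium that the labels call MM, moved to Vogel's salts with 1% cellobiose and collected 4 h later. The study's title links NCW-1 to cellulase production by way of cellobiose uptake. The values here are transcript levels only and hold no measure of uptake. There was 1 library per strain, no strain with intact β-glucosidase genes and no other carbon source. No difference below therefore has a replicate check or a p-value, and each compares these libraries, not the genotypes in general.

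Cellodextrin transporters sit in the hyphal plasma membrane and carry cellobiose and longer cellodextrins, the products of cellulase action, into the cell, where an intracellular β-glucosidase cleaves them to glucose. Both proteins belong to the major facilitator superfamily of sugar transporters. CDT-1 moves its substrate together with protons, whereas CDT-2 works as a facilitator and also carries xylodextrins, the short xylose chains released from xylan. In N. crassa, cellobiose that is not cleaved acts as an inducer of cellulase genes, which is why strains without β-glucosidases are used to study induction by cellobiose itself.

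The ncw-1 transcript (NCU05137) followed the labels, with 2.62 RPKM in Δ3βGΔncw-1 and 435 RPKM in Δ3βG. The deleted β-glucosidase genes were between 0.350 and 3.41 RPKM in Δ3βGΔncw-1 and between 0.342 and 1.09 RPKM in Δ3βG. The RPKM values had been scaled to 20019350 reads in Δ3βGΔncw-1 and 20510798 reads in Δ3βG. The libraries also differed in transcripts that the genotype labels do not name. Both labels end in the letter a, yet the mat A transcripts matA-1 and ccg-4 had 15.4 RPKM (matA-1) and 87.9 RPKM (ccg-4) in Δ3βGΔncw-1 and were listed at 0 in Δ3βG. The mat a pheromone precursor gene mfa-1 had 35.0 RPKM in Δ3βGΔncw-1 and 141 RPKM in Δ3βG. Of 6 markers of conidiating cells, 3 were at least 2-fold lower in Δ3βGΔncw-1, against 11.1% of all genes that reached 10 RPKM in either library. The summed level of the 6 was 2521 RPKM in Δ3βGΔncw-1 and 61282 RPKM in Δ3βG. Nearly all of that sum in Δ3βG was the hydrophobin gene eas, with 1746 RPKM in Δ3βGΔncw-1 and 60350 RPKM in Δ3βG, which made up 0.355% of all RPKM in Δ3βGΔncw-1 and 12.8% in Δ3βG. The other markers were fl (11.99 RPKM in Δ3βGΔncw-1 and 49.9 RPKM in Δ3βG), acon-3 (2.07 RPKM in Δ3βGΔncw-1 and 43.9 RPKM in Δ3βG), con-6 (157 RPKM in Δ3βGΔncw-1 and 284 RPKM in Δ3βG), con-10 (90.0 RPKM in Δ3βGΔncw-1 and 66.1 RPKM in Δ3βG) and con-8 (514 RPKM in Δ3βGΔncw-1 and 487 RPKM in Δ3βG). With RPKM scaled to equal sums without eas, con-6 was also past 2-fold lower, which made 4 lower markers, and the small positive difference of con-8 turned negative. The direction of acon-3 was fixed by the minimum, since it was below 10 RPKM in Δ3βGΔncw-1. None of the 6 was at 0 in either library. The part of these differences in the transporter levels was not tested.

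Both transporter genes were far higher in Δ3βGΔncw-1. The RPKM of cdt-1 was 2401 in Δ3βGΔncw-1 and 121 in Δ3βG, a 19.8-fold difference. The RPKM of cdt-2 was 7276 in Δ3βGΔncw-1 and 476 in Δ3βG, a 15.3-fold difference. The counting error of these values is small against the differences. Whole read numbers recovered from the RPKM values gave 146583 reads of cdt-1 in Δ3βGΔncw-1 and 7588 in Δ3βG on a gene model of 3050 bases. For cdt-2 they gave 293641 reads in Δ3βGΔncw-1 and 19665 in Δ3βG on a model of 2016 bases. The exact 95% counting interval of the fold was 19.3 to 20.3 for cdt-1 and 15.1 to 15.5 for cdt-2. These intervals, like all others below, speak only to counting error and leave out how cultures vary.

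On the scale of log2(RPKM + 1) the difference, Δ3βGΔncw-1 minus Δ3βG, was 4.30 for cdt-1 and 3.93 for cdt-2. The median gene that reached 10 RPKM in either library stood at −0.32, and relative to it the difference was 4.62 for cdt-1 and 4.25 for cdt-2. Across the 5988 genes that reached 10 RPKM, leaving out the deleted genes, 8.08% had a level in Δ3βGΔncw-1 at least 2-fold above that in Δ3βG and 11.1% a level at least 2-fold below it. These were 484 higher and 664 lower genes, 42.2% of them on the higher side, and 66.3% after centring on the median gene or 65.6% under trimmed mean scaling. With RPKM scaled to equal sums without eas, 24.5% were on the higher side. The minimum itself fixed the direction of 211 of the higher genes, which were below 10 RPKM in Δ3βG, and of 300 of the lower genes, which were below it in Δ3βGΔncw-1. By log2 ratio, cdt-1 was in place 48 and cdt-2 in place 62 of those 5988 genes, with place 1 the most elevated.

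**Figure D1:**
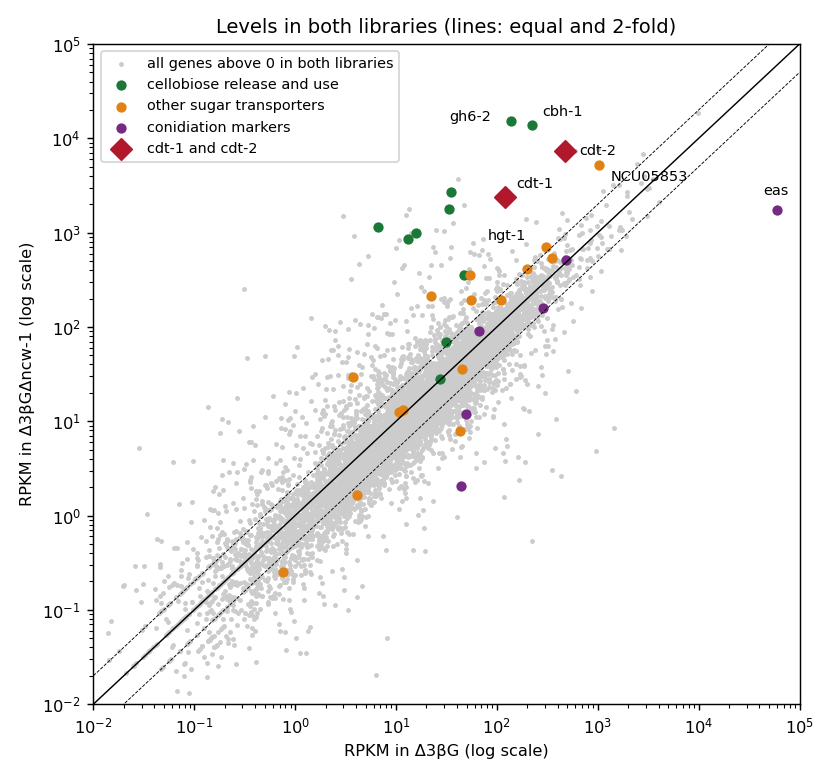
RPKM of each gene in Δ3βGΔncw-1 (vertical, log scale) against Δ3βG (horizontal, log scale), 1 library each; the solid line marks equal levels and the dashed lines a 2-fold difference. The diamonds of cdt-1 (2401 RPKM in Δ3βGΔncw-1 and 121 RPKM in Δ3βG) and cdt-2 (7276 RPKM in Δ3βGΔncw-1 and 476 RPKM in Δ3βG) lie far above the band of most genes, below cbh-1 and gh6-2, while eas lies far below it.

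The transporter genes were not low in Δ3βG. The median over all genes was 11.6 RPKM in Δ3βGΔncw-1 and 14.4 RPKM in Δ3βG. The level of cdt-1 was 207 times the median gene in Δ3βGΔncw-1 and 8.45 times in Δ3βG. The level of cdt-2 was 628 times the median gene in Δ3βGΔncw-1 and 33.1 times in Δ3βG. Of the 767 genes with at least 100 RPKM in Δ3βG, a limit chosen after the values had been seen, cdt-1 had the third highest log2 ratio and cdt-2 the next one down. Above them in that class were the cellobiohydrolase genes gh6-2, at 112-fold, and cbh-1, at 61.8-fold. Below them came NCU08756, at 12.3-fold, and NCU04522, at 7.65-fold.

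Within the Δ3βGΔncw-1 library cdt-2 was the sixth most abundant transcript per length and cdt-1 was in place 22 of 9730. In the Δ3βG library cdt-2 was in place 90 and cdt-1 in place 605. Each cdt value was moved to the ends of its counting interval. All other genes were held at their listed values, so their counting error is left out. This step left cdt-1 in place 22 in Δ3βGΔncw-1 and between places 593 and 619 in Δ3βG. The same step put cdt-2 in places 5 to 6 in Δ3βGΔncw-1 and in places 89 to 93 in Δ3βG. Neighbours in the order were therefore not always separated. In Δ3βGΔncw-1 cdt-2 (7276 RPKM, interval 7249 to 7302) overlapped NCU08756 just above it (7296 RPKM, 7267 to 7324), but stood clear of ccg-16 just below it (6803 RPKM, 6760 to 6847). In the same library cdt-1 (2401 RPKM, 2388 to 2413) was clear of NCU08949 above it (2441 RPKM, 2421 to 2461) and of NCU16822 below it (2126 RPKM, 2104 to 2148). In Δ3βG the level of cdt-1 (121 RPKM, 119 to 124) could not be told from those of NCU06844 (121 RPKM) and rgb-1 (121 RPKM) beside it in the order. The same held for qde-2 (122 RPKM), just above NCU06844.

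**Figure D2:**
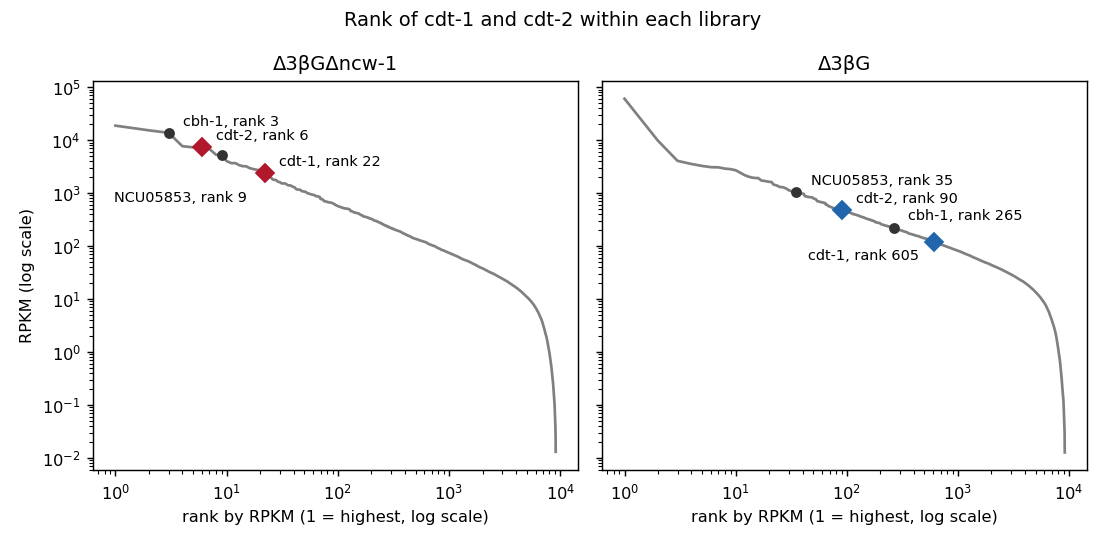
RPKM (log scale) against rank by RPKM (log scale, 1 the highest) for all genes above 0, Δ3βGΔncw-1 on the left and Δ3βG on the right; diamonds mark the transporter genes. cdt-2 is at rank 6 in Δ3βGΔncw-1 and 90 in Δ3βG, cdt-1 at rank 22 in Δ3βGΔncw-1 and 605 in Δ3βG, and the cellobiohydrolase gene cbh-1 stands above both in Δ3βGΔncw-1 but between them in Δ3βG.

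Together the pair took 2.20% of the reads in Δ3βGΔncw-1 (exact 95% interval 2.19% to 2.21%) and 0.133% in Δ3βG (0.131% to 0.134%). The share of cdt-1 alone was 0.732% in Δ3βGΔncw-1 and 0.0370% in Δ3βG, and that of cdt-2 was 1.47% in Δ3βGΔncw-1 and 0.0959% in Δ3βG. Their summed level was 9676 RPKM in Δ3βGΔncw-1 and 597 RPKM in Δ3βG, 16.2-fold apart. In bulk RNA, more hyphae that transcribe a gene and more transcript per hypha cannot be told apart.

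The transporter genes did not differ between the libraries in equal proportion. Per length, cdt-2 stood above cdt-1 in both, at 3.03 times its RPKM in Δ3βGΔncw-1 (counting interval 3.01 to 3.05) and 3.92 times in Δ3βG (3.82 to 4.03). The fold of cdt-1 was 1.29 times that of cdt-2 (1.26 to 1.33), a gap beyond counting error that has no replicate behind it. This ratio is taken within each library, so it does not depend on how the libraries are scaled to each other. It does depend on how reads were assigned. In the reference annotation a further gene, NCU10770, lies wholly within the span of cdt-1, and it was listed at 0 in both libraries. Whether reads from that stretch went to cdt-1 or to neither gene, and whether strand was used, is not given in the sources used here. The span of cdt-2 overlaps neither adjacent gene.

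The other genes beside the transporters in the genome had much lower levels. Neighbours were the 3 genes on each side in order of start, which for cdt-1 includes NCU10770 inside its span. Of these 6 genes at cdt-1, 4 stayed below 10 RPKM in both libraries, and both others were within 2-fold. Those others were NCU00803 with 11.7 RPKM in Δ3βGΔncw-1 and 7.78 RPKM in Δ3βG, and NCU00802 with 30.4 RPKM in Δ3βGΔncw-1 and 34.3 RPKM in Δ3βG. The 4 low ones had at most 2.93 RPKM, that of NCU00804 in Δ3βGΔncw-1 (0.220 RPKM in Δ3βG), and the rest were NCU10770, NCU00800 (1.86 RPKM in Δ3βGΔncw-1 and 0.191 RPKM in Δ3βG) and NCU00799 (1.57 RPKM in Δ3βGΔncw-1 and 1.81 RPKM in Δ3βG). Around cdt-2, 3 of the 6 stayed below 10 RPKM in both libraries. The other 3 passed 2-fold toward higher values in Δ3βGΔncw-1, against 8.08% of all genes that reached 10 RPKM. The DNA mismatch repair gene msh3, directly beside cdt-2, had 65.9 RPKM in Δ3βGΔncw-1 and 19.7 RPKM in Δ3βG, a 3.35-fold difference (3.16 to 3.56). NCU08117 had 24.5 RPKM in Δ3βGΔncw-1 and 7.25 RPKM in Δ3βG, and NCU08113, on the other side of cdt-2, had 10.9 RPKM in Δ3βGΔncw-1 and 1.17 RPKM in Δ3βG. Both were below 10 RPKM in Δ3βG, so the minimum itself fixed their direction. NCU08111, NCU08112 and NCU08116 stayed below 10 RPKM in both libraries.

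Among 17 genes listed as sugar transporters, cdt-1 and cdt-2 had the highest log2 ratios. The 15 that reached 10 RPKM comprised 9 genes past 2-fold on the higher side in Δ3βGΔncw-1, 1 past 2-fold on the lower side and 5 in between. Of all genes, 8.08% were higher. Without cdt-1 and cdt-2 the count of higher genes was 7 of 13, with a median log2 ratio of 1.07, where the median of all genes was −0.32. This list, like the other gene lists, was chosen with earlier results of these data known. Its counts set beside the share of all genes are therefore a description and not a test. Next after the cdt genes by fold came NCU00988, with 214 RPKM in Δ3βGΔncw-1 and 22.3 RPKM in Δ3βG (9.61-fold), NCU06138, with 29.7 RPKM in Δ3βGΔncw-1 and 3.78 RPKM in Δ3βG (7.85-fold), and NCU05897, with 357 RPKM in Δ3βGΔncw-1 and 53.8 RPKM in Δ3βG (6.64-fold). The level of NCU06138 was below 10 RPKM in Δ3βG, so its direction was fixed by the minimum. NCU05853 (5194 RPKM in Δ3βGΔncw-1 and 1038 RPKM in Δ3βG) and NCU04963 (193 RPKM in Δ3βGΔncw-1 and 54.9 RPKM in Δ3βG) were also past 2-fold.

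The glucose transporter gene hgt-1 had 699 RPKM in Δ3βGΔncw-1 and 305 RPKM in Δ3βG, 2.29-fold, and NCU09287 had 416 RPKM in Δ3βGΔncw-1 and 197 RPKM in Δ3βG, 2.11-fold. With RPKM scaled to equal sums without eas, neither of these passed 2-fold. NCU02188 was 1.75-fold higher as deposited and past 2-fold relative to the median gene. NCU00821 was 1.55-fold higher. The putative glucose sensor gene sor-4 had 35.3 RPKM in Δ3βGΔncw-1 and 44.6 RPKM in Δ3βG. NCU05627 (13.3 RPKM in Δ3βGΔncw-1 and 11.7 RPKM in Δ3βG) and NCU08152 (12.4 RPKM in Δ3βGΔncw-1 and 10.8 RPKM in Δ3βG) had small positive log2 ratios that turned negative with RPKM scaled to equal sums without eas. The 1 lower gene was NCU01633, with 7.83 RPKM in Δ3βGΔncw-1 and 42.6 RPKM in Δ3βG, and it too passed the minimum in 1 library only, which fixed its direction. NCU04537 and NCU06384 stayed below 10 RPKM in both libraries.

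The order of the transporter genes by level differed between the libraries. In Δ3βGΔncw-1 it ran cdt-2, NCU05853, cdt-1, hgt-1 and NCU00821 (539 RPKM). In Δ3βG it ran NCU05853, cdt-2, NCU00821 (349 RPKM), hgt-1, NCU09287 and, in sixth place, cdt-1. The counting interval of neither cdt gene overlapped that of its neighbour in this list in either library. Relative to hgt-1, cdt-1 was 3.44 times as high in Δ3βGΔncw-1 and 0.397 times as high in Δ3βG. The pair held 55.0% of the summed RPKM of the 17 genes in Δ3βGΔncw-1 and 21.0% in Δ3βG. The other 15 genes summed to 7904 RPKM in Δ3βGΔncw-1 and 2248 RPKM in Δ3βG, 3.52-fold apart, and to 2.24-fold without NCU05853.

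**Figure D3:**
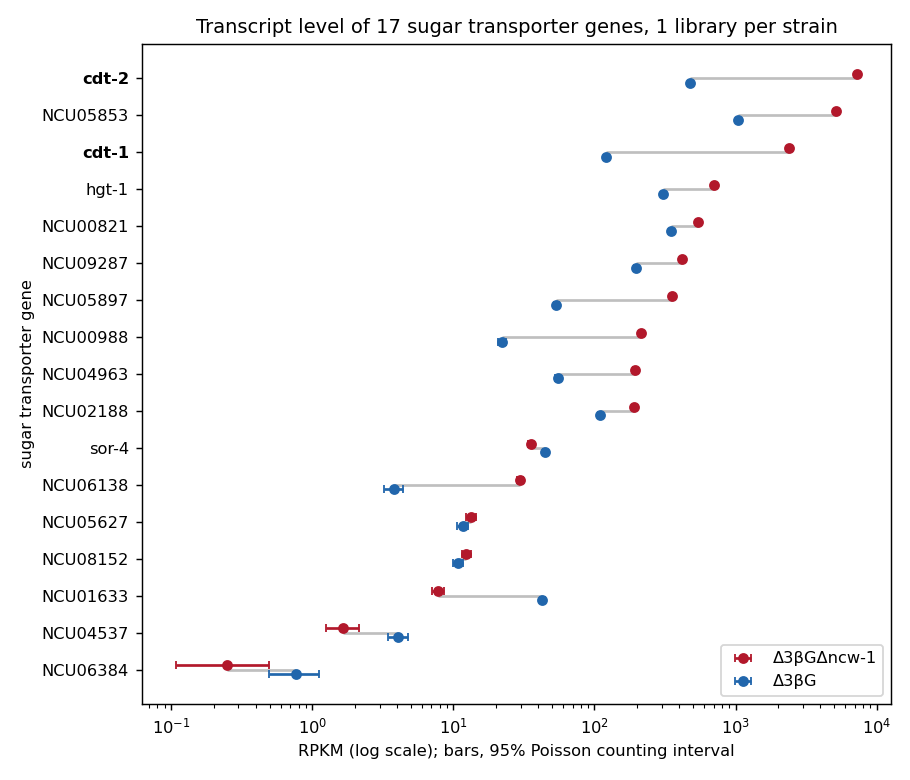
RPKM (log scale) of 17 sugar transporter genes in Δ3βGΔncw-1 (red) and Δ3βG (blue), 1 library each, ordered by the level in Δ3βGΔncw-1; bars are 95% Poisson counting intervals and grey lines join the values of a gene. The longest lines are those of cdt-1 and cdt-2; NCU01633 runs the other way.

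The enzymes that release the transporters' substrate differed more than the transporters did. In the list for cellobiose release and use, all 10 genes reached 10 RPKM, 9 passed 2-fold toward higher values in Δ3βGΔncw-1, 0 toward lower ones, and the median log2 ratio was 5.90. Of all genes, 8.08% were higher and 11.1% lower by the same limit. The genes gh6-3 (78.2-fold), gh5-1 (62.5-fold, an endoglucanase gene) and gh7-1 (52.7-fold) were all past the 19.8-fold of cdt-1. The order of levels between enzyme and transporter was not the same in the libraries. In Δ3βGΔncw-1 the cellobiohydrolase gene cbh-1 (13724 RPKM) had 1.89 times the RPKM of cdt-2, and gh6-2 (15268 RPKM) had 2.10 times. In Δ3βG cbh-1 (222 RPKM) had 0.467 times the RPKM of cdt-2, and gh6-2 (136 RPKM) had 0.287 times. The cellobiose dehydrogenase gene cdh-1, whose product oxidises cellobiose outside the cell, had 862 RPKM in Δ3βGΔncw-1 and 13.2 RPKM in Δ3βG (65.3-fold).

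The β-glucosidase genes that both strains keep differed from one another. The level of gh3-6 was 1154 RPKM in Δ3βGΔncw-1 and 6.68 RPKM in Δ3βG, below the minimum there. That of gh3-5 was 69.6 RPKM in Δ3βGΔncw-1 and 31.4 RPKM in Δ3βG, past 2-fold except with RPKM scaled to equal sums without eas. That of gh3-2 was 28.0 RPKM in Δ3βGΔncw-1 and 27.5 RPKM in Δ3βG, a difference whose sign turned with RPKM scaled to equal sums, with or without eas. Outside these β-glucosidase genes, NCU09425, the remaining gene of the list for cellobiose release and use, was 7.51-fold higher (351 RPKM in Δ3βGΔncw-1 and 46.7 RPKM in Δ3βG).

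The medium held cellobiose and no added xylan, but genes for the other substrate of CDT-2 were higher too. Of 9 listed genes for xylodextrin release and use, 8 were in the table. All 8 reached 10 RPKM, and 7 passed 2-fold toward higher values in Δ3βGΔncw-1 and 0 toward lower ones, against 8.08% and 11.1% of all genes, with a median log2 ratio of 3.64. Of the 7, 6 were below 10 RPKM in Δ3βG, so the minimum fixed their direction. The count and the median rest largely on these 6. The exception was the endoxylanase gene gh10-1, with 840 RPKM in Δ3βGΔncw-1 and 10.6 RPKM in Δ3βG (79.4-fold). The endoxylanase genes gh11-2, gh10-2 and gh11-1 had 1517, 302 and 53.9 RPKM in Δ3βGΔncw-1, against 2.98, 9.50 and 4.12 RPKM in Δ3βG.

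The xylose reductase gene xr had 98.3 RPKM in Δ3βGΔncw-1 and 6.09 RPKM in Δ3βG (16.1-fold), close to the fold of cdt-2. NCU01900 was 12.2-fold and NCU00891 4.10-fold higher. The xylulokinase gene xyk-1 had 29.6 RPKM in Δ3βGΔncw-1 and 16.8 RPKM in Δ3βG (1.76-fold), which passed 2-fold relative to the median gene and under trimmed mean scaling.

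The list of 7 regulator genes for plant cell wall degradation held 4 that passed 2-fold toward higher values in Δ3βGΔncw-1, 1 that passed it toward lower values and 2 in between. The shares over all genes were 8.08% higher and 11.1% lower, and 1 lower gene of 7 is near that lower share. The gene of CLR-2, an activator of cellulase and cellodextrin transporter genes, had 123 RPKM in Δ3βGΔncw-1 and 7.14 RPKM in Δ3βG. The fold of clr-2, 17.2 (15.7 to 18.9), lay between those of cdt-1 and cdt-2, and its counting interval overlapped neither of theirs. On the scale of log2(RPKM + 1) it did not lie between them, with 3.926 for clr-2 and 3.933 for cdt-2. As clr-2 was below 10 RPKM in Δ3βG, the minimum fixed its direction. The xylanase activator gene xlr-1 was 7.08-fold higher, vib-1 6.15-fold and clr-1, whose product acts upstream of clr-2, 2.45-fold. The gene of the carbon catabolite repressor, cre-1, had 11.04 RPKM in Δ3βGΔncw-1 and 66.3 RPKM in Δ3βG, 6.01-fold lower (5.28 to 6.85). NCU05255 was 1.40-fold higher, and col-26 had 53.8 RPKM in Δ3βGΔncw-1 and 60.8 RPKM in Δ3βG, a difference whose sign turned on centring on the median gene and under trimmed mean scaling. In both libraries the 4 higher regulators stayed well under the transporters in level, at most 198 RPKM in Δ3βGΔncw-1, for xlr-1, and 45.3 RPKM in Δ3βG, for clr-1.

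**Figure D4:**
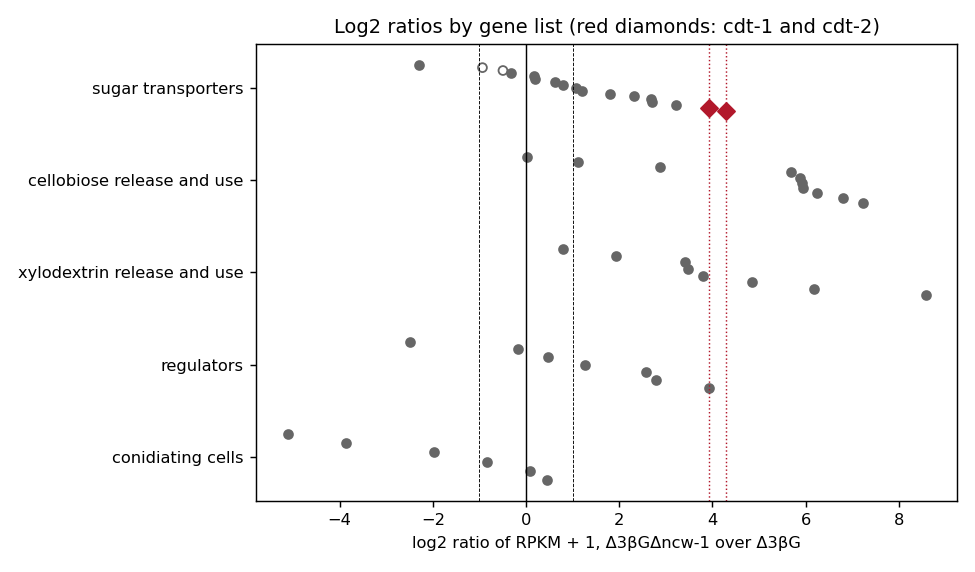
Difference in log2(RPKM + 1), Δ3βGΔncw-1 minus Δ3βG, for each gene of 5 lists, with open circles for genes below 10 RPKM in both libraries; dashed lines mark 2-fold and dotted lines the values of cdt-1 (4.30) and cdt-2 (3.93). The cdt genes are the highest of the transporters, most genes of cellobiose release lie to their right, and clr-2, the highest regulator, lies at 3.93.

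Likeness of pattern was measured as the Euclidean distance between log2(RPKM + 1) in both libraries, which with 2 values per gene says only that levels were alike. The closest gene to cdt-2 was NCU08756, with 7296 RPKM in Δ3βGΔncw-1 and 593 RPKM in Δ3βG, at a distance of 0.319. After it came NCU04522 (7666 RPKM in Δ3βGΔncw-1 and 1002 RPKM in Δ3βG), the sugar transporter gene NCU05853, cbh-1, ccg-6 and NCU03600, at distances of 1.08 to 1.96. No gene was as close to cdt-1. The closest was NCU08541, with 1396 RPKM in Δ3βGΔncw-1 and 195 RPKM in Δ3βG, at a distance of 1.04. The next were NCU05394 (1300 RPKM in Δ3βGΔncw-1 and 245 RPKM in Δ3βG), the lytic polysaccharide monooxygenase gene gh61-5 (1983 RPKM in Δ3βGΔncw-1 and 46.8 RPKM in Δ3βG), NCU08397, gh61-4 and gh6-3, the last at 1.78. The partner gene cdt-2 was in place 36 by closeness to cdt-1, at 2.53, its level being higher in both libraries.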

How the data were processed

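RNA of 2 libraries, 1 per strain, was measured by sequencing. The authors deposited RPKM values for both in 1 table, per the file headers; 0 columns were left unused. The submitters' processing notes name DESeq 1.5.1, HTSeq 0.5.4p2 and TopHat2 2.0.8b without a role for each. The sources used here do not give the genome build, annotation or strand setting, so no coordinates are printed, and overlapping genes or near-identical copies may share reads. The reference gene table (assembly NC12) gave symbols, neighbours and spans for 9729 of 9730 genes.

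Computed here, with Python 3.11.15, numpy 2.4.6, pandas 2.3.3 and scipy 1.17.1, were RPKM ratios, log2 ratios of RPKM + 1 (which understate the change of low genes), ranks and whole reads. Library totals came from the smallest RPKM steps of genes whose model equals the reference span. A model length of at least 50% of the span was accepted where it gave whole reads in both libraries, within 1e-06 reads plus 1e-09 of the read number. All 9264 genes tried had one, 8345 of them a single one, as did cdt-1 and cdt-2. Elsewhere the shortest was used. The steps were tested on simulated data. Fold and share intervals are exact Clopper-Pearson intervals and level intervals are exact Poisson intervals, all at 95%. The ratio of folds has a log-normal interval. Counts by list use genes that reach 10 RPKM in 1 library or both and a 2-fold limit on the log2 ratio.

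The members and lists were chosen with earlier results of these data known. Named are cdt-1 and cdt-2, the deleted genes, every list member, the markers, 3 neighbours on each side of each cdt gene and the 6 genes closest in pattern to each. Genes next in rank, and those around the cdt genes among genes of at least 100 RPKM in Δ3βG, were chosen after their values had been seen. Alternatives were pseudocounts, minimum values, scalings and ranking by reads.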

Additional observations from a re-analysis of the deposited data

How the results depend on the processing

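Both transporter genes stayed more than 2-fold higher in Δ3βGΔncw-1 under each pseudocount and scaling tried. The log2 ratio of cdt-1, 4.30 as reported, was 4.25 with a pseudocount of 5 RPKM, 4.62 both when centred on the median gene and under trimmed mean scaling, and 4.24 with RPKM scaled to equal sums. That of cdt-2, 3.93 as reported, was 4.25 when centred, 4.26 under trimmed mean scaling and 3.88 with equal sums. With sums made equal without eas, an alternative chosen after seeing the data, cdt-1 stood at 4.05 and cdt-2 at 3.68. The change in the cdt-2 to cdt-1 ratio kept its direction and stayed within its counting interval throughout. Ranked by recovered reads, which favours long models, cdt-1 was in place 11 in Δ3βGΔncw-1 and 384 in Δ3βG, and cdt-2 in place 3 in Δ3βGΔncw-1 and 92 in Δ3βG. The count of higher genes, 484, was 268 with a minimum of 50 RPKM, 676 centred, 671 under trimmed mean scaling and 385 with equal sums without eas. The shares over all genes given above move with this count and with that of lower genes. The count of lower genes, 664, was 240 with that minimum, 425 with a pseudocount of 5 RPKM, 343 centred, 352 under trimmed mean scaling and 1186 with equal sums without eas. The count of higher transporter genes, 9, ran between 7 and 10. No paired analysis was possible because each strain had 1 library. Depth limits the low transporter genes, such as NCU06384, and not cdt-1 or cdt-2. Culture variation cannot be told apart from the loss of ncw-1. The same holds for the differences in mating type and conidiation transcripts given above.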
